A study of Mus musculus with 7 samples.

Results

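The 8 genes described here set the myostatin and insulin-like growth factor (IGF) balance that governs muscle mass: Mstn, Acvr2b, Fst, Smad3, Smad7, Igf1, Igf1r and Igfbp5. They were chosen by name for that role, and all 8 were found among the 21884 protein-coding genes of the GENCODE M21 annotation of mm10 (GRCm38). For each gene, every peak was collected that overlapped the gene body or came within 10 kb of an annotated transcription start site (TSS), which gave 174 of the 527912 peaks in 6 lists. The lists came from chromatin immunoprecipitation sequencing (ChIP-seq) of gastrocnemius, a calf muscle, from 5-month-old male wild-type C57BL/6J mice. BMAL1 was precipitated from muscle taken at Zeitgeber time (ZT) 4, REV-ERBα at ZT 8, and RNA polymerase II (RNAP2) at ZT 4, with 2 biological replicates each, and peaks were called against input DNA. No group was mutant or treated, and each factor was profiled at a single time, so the lists hold no contrast between conditions and no test was made. Whole muscle was used, so a peak is not tied to one cell type.

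Myostatin, encoded by Mstn, is a secreted brake on muscle growth that binds activin type II receptors such as ACVR2B and signals through SMAD2 and SMAD3. Follistatin, encoded by Fst, captures myostatin and activins outside the cell, and SMAD7 is an inhibitory SMAD that the pathway itself can induce. IGF1 acts in the opposite direction, driving muscle protein synthesis through its receptor IGF1R and the PI3K-AKT-mTOR cascade, and IGFBP5 is an IGF binding protein that is abundant in muscle. BMAL1 is the activating arm of the circadian clock and binds E-boxes, while REV-ERBα is a repressor that recognizes the letters AGGTCA. RNAP2 at a promoter marks polymerase that is engaged or paused there.

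The lists ranged from 28881 peaks (REV-ERBα replicate 1) to 177669 peaks (BMAL1 replicate 2), under a permissive p-value cutoff. Between 20.7% and 31.0% of the peaks of a list shared a single, most common −log10 p, and values were therefore read within a list. Peaks of the replicates that overlapped by at least 1 bp were joined into a region, and a region is meant below only where both lists had a peak. This gave 2742 BMAL1, 1263 REV-ERBα and 10752 RNAP2 regions. The reads behind a single peak are unknown, so no counting interval could be given. All 6 skeletal muscle fiber markers had an RNAP2 region within 1 kb of a TSS, for example Acta1 (−log10 p 131 and 39.9) and Ckm (84.5 and 31.6). Of 12 markers of 6 other cell types, 4 had an RNAP2 region in their window, and for 1 of these, the fibroblast collagen gene Col1a1, it lay closest to the gene's own TSS. Of the fiber markers, 5 had a BMAL1 region and 5 had a REV-ERBα region, against 0 and 1 of the 12 others. Over all protein-coding genes the shares were 6.81% and 4.42%. The strongest REV-ERBα region lay closest to the TSS of another gene for Ckm, Mylpf, Myh4 and the macrophage and leukocyte marker Cd68. The same held for the strongest BMAL1 region of Ckm.

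Sequences of the sites that the results turn on were read from the GRCm38 reference, on the strand of the gene. Capitals mark the letters CANNTG (the E-box family, which includes the palindrome CAGCTG), the REV-ERBα letters AGGTCA or its reverse complement and, in the promoters, TATAAA on the strand of the gene. The first is the intronic REV-ERBα region of Igfbp5 (chr1:72869009-72869308, minus strand), the sole REV-ERBα region of the 8 genes. The second holds the strongest REV-ERBα peak of the 8 genes, in an Acvr2b intron (chr9:119407901-119408101, plus strand). The last are the promoters of Mstn (chr1:53061390-53061669, plus strand), Smad3 (chr9:63757965-63758244, minus strand) and Igfbp5 (chr1:72874855-72875115, minus strand) from RefSeq, each with an RNAP2 region.
Igfbp5 intron: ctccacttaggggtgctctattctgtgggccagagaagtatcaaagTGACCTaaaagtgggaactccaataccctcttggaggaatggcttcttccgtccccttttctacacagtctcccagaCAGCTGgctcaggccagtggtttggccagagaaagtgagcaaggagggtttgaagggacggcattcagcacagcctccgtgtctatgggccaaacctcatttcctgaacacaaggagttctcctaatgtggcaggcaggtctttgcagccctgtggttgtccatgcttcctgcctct
Acvr2b intron: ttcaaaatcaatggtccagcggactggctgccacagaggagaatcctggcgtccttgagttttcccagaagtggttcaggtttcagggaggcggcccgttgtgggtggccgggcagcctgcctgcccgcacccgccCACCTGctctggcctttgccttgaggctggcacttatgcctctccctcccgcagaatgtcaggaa
Mstn promoter: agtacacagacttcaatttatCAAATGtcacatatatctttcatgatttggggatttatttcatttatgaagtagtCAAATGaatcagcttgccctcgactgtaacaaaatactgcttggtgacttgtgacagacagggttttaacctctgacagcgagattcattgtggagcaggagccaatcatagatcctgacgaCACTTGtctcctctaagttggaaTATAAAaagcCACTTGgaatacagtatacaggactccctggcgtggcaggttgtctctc
Smad3 promoter: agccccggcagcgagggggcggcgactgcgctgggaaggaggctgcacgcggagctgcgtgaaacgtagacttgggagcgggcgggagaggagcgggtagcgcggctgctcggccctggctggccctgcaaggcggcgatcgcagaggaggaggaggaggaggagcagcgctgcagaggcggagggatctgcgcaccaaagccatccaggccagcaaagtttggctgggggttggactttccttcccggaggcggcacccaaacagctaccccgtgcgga
Igfbp5 promoter: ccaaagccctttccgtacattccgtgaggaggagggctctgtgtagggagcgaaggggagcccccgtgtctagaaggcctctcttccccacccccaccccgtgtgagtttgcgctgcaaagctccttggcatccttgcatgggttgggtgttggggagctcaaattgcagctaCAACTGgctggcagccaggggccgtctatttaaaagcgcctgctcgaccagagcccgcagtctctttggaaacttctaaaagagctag

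The Igfbp5 intron held a reversed AGGTCA and, farther along the gene strand, the letters CAGCTG, which lay between the summits of the replicates. The stretch printed is centered between those summits. In 300-bp windows centered on the stronger summit of each REV-ERBα region, 17.5% held CAGCTG and 19.2% held AGGTCA. Within 100 bp of the stronger Igfbp5 summit, CAGCTG was found and AGGTCA was not. The letters CAGAC, which contain the core of a SMAD binding element, shared a base with this CAGCTG and were in 48.1% of the REV-ERBα windows of that length. The Acvr2b stretch held a single CANNTG, as CACCTG, and none of the other letters searched. Among REV-ERBα regions, 62.9% of windows of that length (201 bp) held a CANNTG. No site held the canonical E-box CACGTG, found within 201 bp at 3.40% of REV-ERBα and 2.55% of BMAL1 regions. The letters GTCTAGAC, a palindromic SMAD element, and TGTTTAC, a forkhead element, were not in these windows either.

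Of the promoters, the one of Mstn held 4 CANNTG matches, as CAAATG at positions -229 and -174 and as CACTTG at -52 and -19 from the first TSS. It also held TATAAA at position -29, letters that were added to the search after the sequence had been seen. Over all 32851 RefSeq promoters, 70.1% of 280-bp windows held CANNTG and 8.02% held TATAAA on the strand of the gene. The letters CAGAC, not marked above, lay at positions -244 and -120 of the Mstn promoter, and 46.8% of the 280-bp windows held them. The Igfbp5 promoter held 1 CANNTG, as CAACTG at position -58, and 67.9% of promoter windows of its 261 bp held one. In the Smad3 promoter as printed, with 69.3% G and C against 41.1% in the Mstn promoter, none of the letters searched was found. Within 100 bp of the stronger RNAP2 summit at the first TSS of Smad3, 1 CANNTG was found, outside the printed stretch. RefSeq promoters were matched for 6 of the 8 genes, and Fst and Smad7 were not matched.

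Regions found in both replicates were counted beside the same count over all genes, and with 8 genes the counts of the clock factors are small either way. None had a BMAL1 region, where 6.81% of all protein-coding genes did. A REV-ERBα region was found in 1 gene, Igfbp5, against 4.42% of all genes. RNAP2 regions were found in 6 of the 8 genes (Mstn, Acvr2b, Smad3, Smad7, Igf1r and Igfbp5), against 41.1% of all genes, and Fst and Igf1 had none. Restricted to 10 kb around each TSS, without the gene body, the members' counts stayed at 0, 1 and 6, beside 4.24%, 3.67% and 38.1% of all genes. Within 1 kb of a TSS, 0 genes had a BMAL1 region, 0 had a REV-ERBα region and 4 had an RNAP2 region (Mstn, Smad3, Smad7 and Igfbp5). The shares over all genes were 0.845%, 1.99% and 30.5%. A site supported by 3 or more of the 4 clock factor lists was found at 0 of the 8 genes, against 1.59% of all genes.

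**Figure D1:**
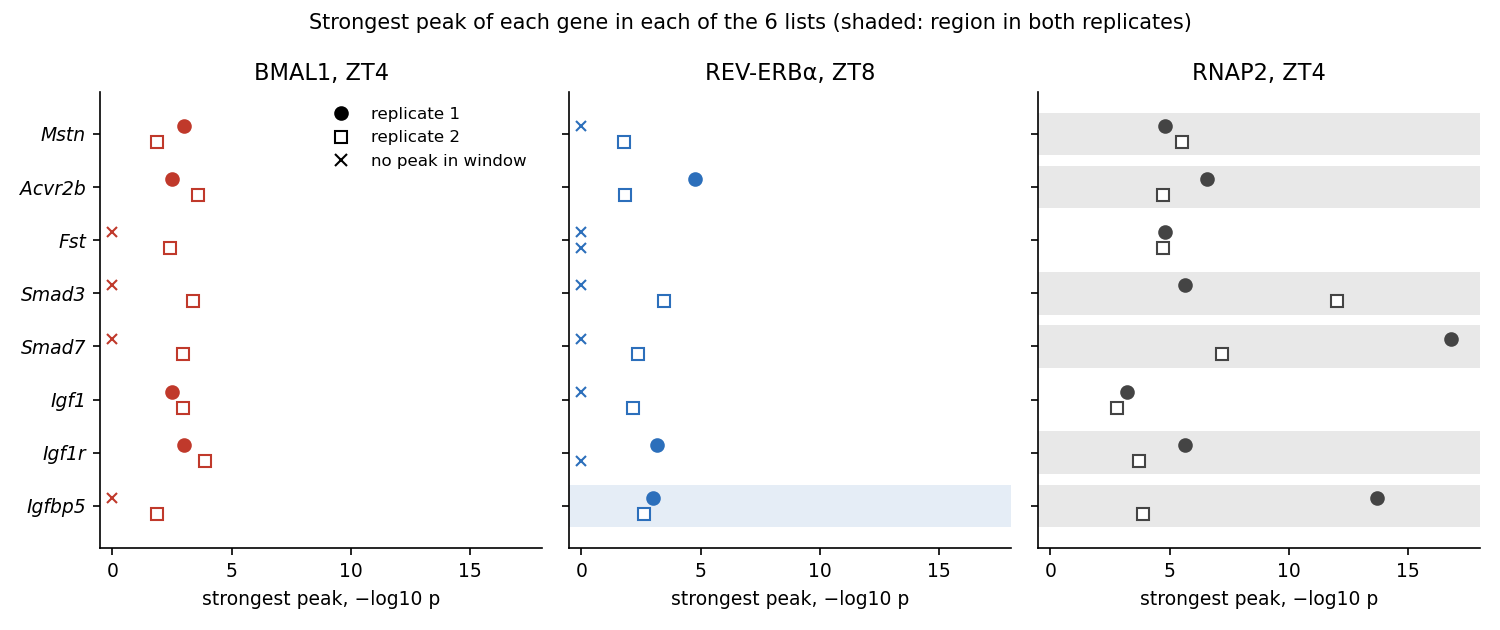
Strongest −log10 p (horizontal axis) of a peak in the window of each gene (rows) in each list, with replicate 1 as filled circles, replicate 2 as open squares and a cross at 0 where a list had no peak. Shaded rows have a region in both replicates: 0 genes for BMAL1, Igfbp5 for REV-ERBα, and 6 genes for RNAP2, with the highest value at Smad7 (16.8 in replicate 1).

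Single lists gave higher counts, as they did for all genes. BMAL1 replicate 1 had a peak at 4 of the 8 genes (Mstn, Acvr2b, Igf1 and Igf1r), against 38.2% of all genes. The long list of BMAL1 replicate 2 had a peak at 8 of 8, against 84.4%. REV-ERBα replicate 1 had a peak at 3 genes (Acvr2b, Igf1r and Igfbp5), against 38.7%, and replicate 2 at 6 (all but Fst and Igf1r), against 40.1%. RNAP2 had a peak at 8 of 8 genes in both lists, against 76.9% and 86.4%. The replicates thus shared 4 genes for BMAL1 and 2 for REV-ERBα, while their peaks overlapped at 0 and 1 of these. Peaks of the replicates overlapped at 6.81% and 4.42% of all genes, and the share with a peak in both lists was not counted. No BMAL1 or REV-ERBα peak of the 8 genes reached −log10 q of 1.3 (a q of 0.05). Few did in the whole lists: 92 of 34737 and 36 of 177669 for BMAL1, and 324 of 28881 and 423 of 29934 for REV-ERBα. For RNAP2, 12 of 36 peaks in replicate 1 and 3 of 54 in replicate 2 did. The whole RNAP2 lists had 10997 of 87870 and 3622 of 168821.

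**Figure D2:**
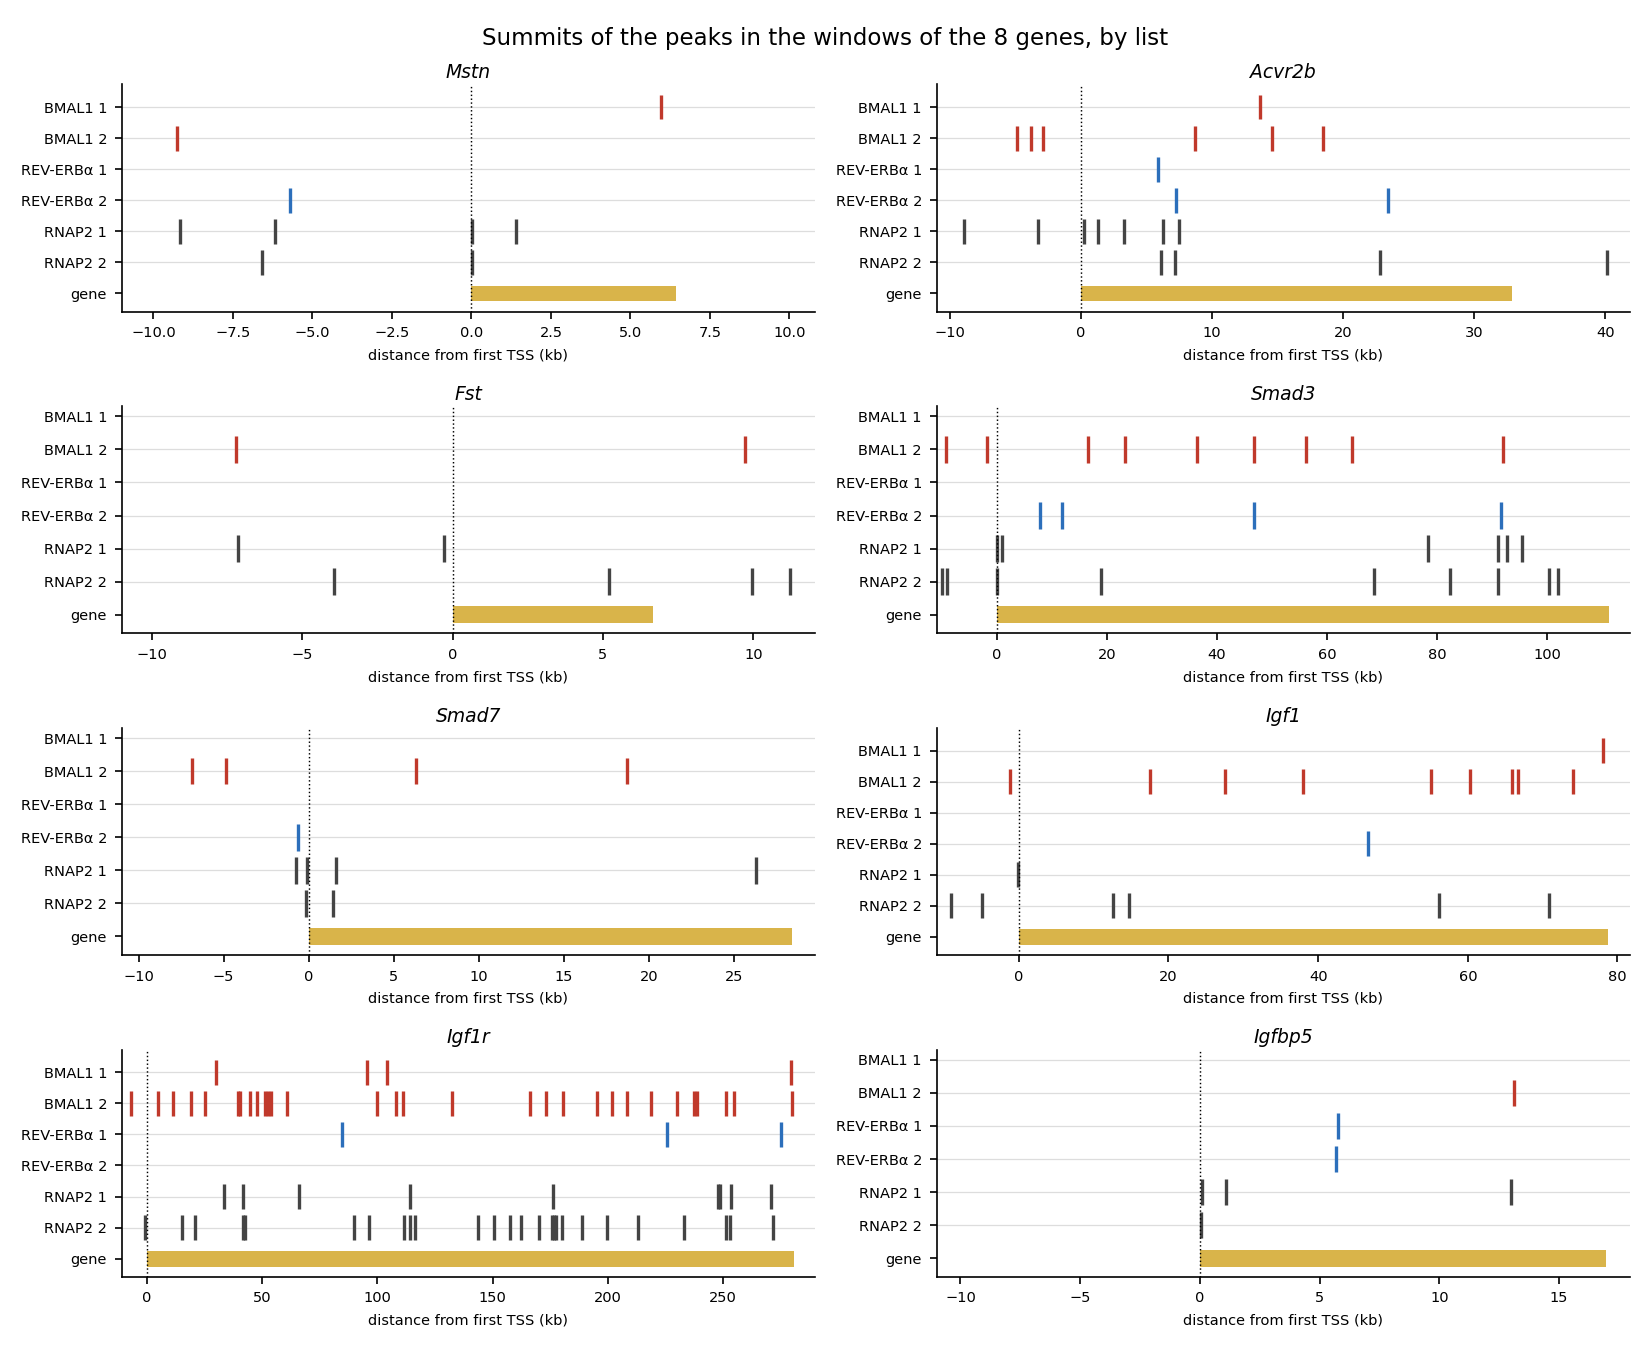
Summits (vertical ticks) of all peaks in the windows of the 8 genes, by list (rows), with the distance from the first annotated TSS in kb on the horizontal axis and the gene body as a yellow bar. RNAP2 ticks of both replicates line up at the first TSS of Mstn, Smad3, Smad7 and Igfbp5, whereas no BMAL1 peak of replicate 1 overlaps a BMAL1 peak of replicate 2.

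Mstn, the ligand of the pathway (ENSMUSG00000026100, chr1:53061640-53068079, plus strand), carried RNAP2 at its start. The RNAP2 peaks had −log10 p of 4.79 and 5.52 in replicates 1 and 2, with −log10 q of 1.64 and 1.90. Their fold enrichments over the local background were 3.75 and 3.94. Their summits lay 1 bp apart, 10 and 9 bp after the second of the gene's 2 TSSs, in the first exon. Both values were high in their own lists, at the 91.4 and 98.3 percentiles, and the region (chr1:53061531-53061918) ranked 3094 of 10752.

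The clock factors showed no reproducible peak at Mstn. BMAL1 replicate 1 had 1 peak, in the last exon 5939 bp after a TSS (−log10 p 3.0), and replicate 2 had 1, at -9248 bp (−log10 p 1.87). These BMAL1 peaks were 14679 bp apart. REV-ERBα had no peak in replicate 1 and 1 in replicate 2, at -5704 bp with −log10 p 1.80, which was in the lower part of that list (15.1 percentile). The nearest BMAL1 region lay 50.3 kb from a TSS of Mstn, the shortest such distance of the 8 genes.

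Acvr2b, the type II receptor that binds myostatin (ENSMUSG00000061393, chr9:119402118-119434995, plus strand), had 2 RNAP2 regions, both inside an intron. The first (chr9:119407709-119408607) had −log10 p of 6.55 and 4.73 and fold enrichments of 4.59 and 3.58. The second (chr9:119409090-119409785) had −log10 p of 5.38 and 4.44. Both replicates were thus above their list medians of 3.21 and 1.99 at both regions. At the promoter, RNAP2 had a peak in replicate 1 (−log10 p 4.79, summit at -63 bp from the second TSS) and none in replicate 2.

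The RNAP2 regions of Acvr2b flank the start of Gm47320, an antisense transcript (chr9:119405108-119409016, minus strand). ChIP-seq gives no strand, so polymerase on Acvr2b and on Gm47320 cannot be told apart. REV-ERBα peaks of both replicates lay in the same stretch without touching each other. Replicate 1 had its peak at chr9:119407630-119408270 (−log10 p 4.76, fold 3.13), overlapping the first RNAP2 region, and it stood at the 98.2 percentile of its list. Replicate 2 had a peak at chr9:119408714-119409455 (−log10 p 1.81, fold 1.84), overlapping the second RNAP2 region, at the 15.5 percentile. The gap between them was 443 bp and their summits were 1357 bp apart, so by the overlap rule Acvr2b had no REV-ERBα region. BMAL1 had 1 peak in replicate 1 (−log10 p 2.48) and 6 in replicate 2 (highest 3.60, at -3818 bp), the closest of them 648 bp apart.

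**Figure D3:**
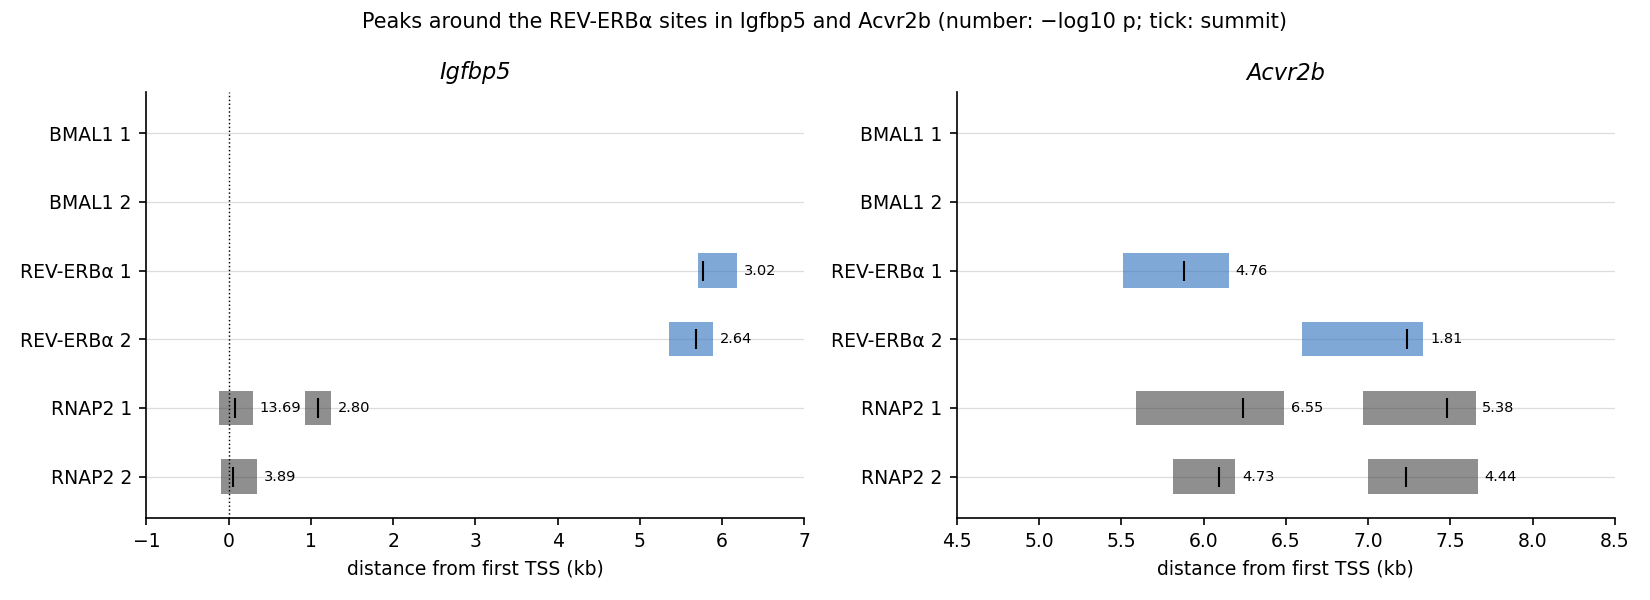
Peaks of the 6 lists around the REV-ERBα sites of Igfbp5 and Acvr2b, with the distance from the first TSS in kb on the horizontal axis; boxes span the peaks, black ticks are summits and numbers are −log10 p. The REV-ERBα boxes of Igfbp5 overlap (3.02 and 2.64) away from the RNAP2 boxes at the TSS, and those of Acvr2b (4.76 and 1.81) do not overlap each other but each overlaps RNAP2 boxes of both replicates.

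Fst, the antagonist that captures myostatin (ENSMUSG00000021765, chr13:114452290-114458951, minus strand), had no REV-ERBα peak in either list, unlike the other 7 genes. BMAL1 had none in replicate 1 and 2 in replicate 2 (−log10 p 2.40 and 1.40). RNAP2 replicate 1 had a peak at -272 bp with −log10 p 4.79 and fold enrichment 3.75. Its summit lay inside another annotated gene, Gm47040, and polymerase on Fst and on Gm47040 cannot be told apart there. In RNAP2 replicate 2 the strongest of 4 peaks had −log10 p 4.73 but lay at -3955 bp. The RNAP2 peaks of the replicates were at least 2820 bp apart, and the nearest RNAP2 region was 359 kb away, at Mocs2.

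Smad3, which carries the receptor signal to the nucleus (ENSMUSG00000032402, chr9:63646767-63757994, minus strand), had RNAP2 at its first TSS. The region (chr9:63757584-63758537) had −log10 p of 5.65 and 12.0, fold enrichments of 4.17 and 6.43, and summits 37 bp apart. Replicate 2 gave the higher value here, at the 99.5 percentile of its list and the highest RNAP2 value of that replicate among the 8 genes. A weaker RNAP2 region (chr9:63666616-63667082, −log10 p 2.29 and 1.74) lay beside an internal TSS at position 63666547.

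At Smad3, REV-ERBα was seen in replicate 2 only, with 4 intronic peaks of −log10 p 1.95 to 3.47. Of these, 3 lay within 1 kb of an internal TSS, and the strongest was 870 bp after the TSS at position 63751077. Replicate 1 had no REV-ERBα peak in the window, and its nearest one was 21433 bp from a TSS. BMAL1 likewise had no peak in replicate 1 and 9 in replicate 2 (highest −log10 p 3.36, in an intron). Around the internal TSS at position 63666547, peaks of BMAL1 replicate 2 (1.87), REV-ERBα replicate 2 (2.77) and both RNAP2 lists joined into a run of 1530 bp. A second run, of 618 bp near the TSS at position 63711969, joined BMAL1 replicate 2 (1.87) and REV-ERBα replicate 2 (2.64). For BMAL1 replicate 2, 1.87 was the most common value of the list (29.4% of its peaks).

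Smad7, the inhibitory SMAD (ENSMUSG00000025880, chr18:75367529-75395935, plus strand), had the strongest RNAP2 region of the 8 genes. Its promoter region (chr18:75367184-75367812) had −log10 p of 16.8 and 7.18 and fold enrichments of 8.22 and 4.30. The summits lay at -116 and -146 bp from the first TSS, and the region ranked 1806 of 10752. Both summits fell between this TSS and the start of Gm20544, a minus-strand transcript (chr18:75365332-75367088). Polymerase on Smad7 and on Gm20544 cannot be told apart here. A second RNAP2 region around further TSSs was weak (−log10 p 3.62 and 1.45). REV-ERBα had 1 peak, in replicate 2, at -629 bp with −log10 p 2.38, inside the divergent transcript Gm20544, and the nearest peak of replicate 1 was 81544 bp from a TSS. BMAL1 had no peak in replicate 1 and 4 in replicate 2, the strongest (2.98) in an intron.

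Igf1, the growth factor (ENSMUSG00000020053, chr10:87858265-87937042, plus strand), had no region of any of the 3 factors. RNAP2 replicate 1 had 1 peak, at -47 bp from the first TSS, with −log10 p 3.21, which was the most common value of that list (23.8% of its peaks). Its summit lay inside Igf1os, an antisense transcript (chr10:87826377-87863381, minus strand). Polymerase on Igf1 and on Igf1os cannot be told apart there. RNAP2 replicate 2 had 6 peaks, with −log10 p 1.99 to 2.79, and none within 1 kb of any of the 8 TSSs. BMAL1 had 1 peak in replicate 1, in the last exon (−log10 p 2.48), and 9 in replicate 2 (highest 2.98), the closest pair 3801 bp apart. REV-ERBα had 1 intronic peak, in replicate 2 (−log10 p 2.15).

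Igf1r, the receptor of IGF1 (ENSMUSG00000005533, chr7:67952827-68233668, plus strand), is the longest of the genes, with a window of 291 kb. It had 4 RNAP2 regions, all intronic, of which the strongest (chr7:68128938-68129489) had −log10 p of 5.65 and 3.72 and fold enrichments of 4.17 and 3.06. The other 3 had values between 1.99 and 3.26. No RNAP2 region lay at the first TSS, where replicate 2 had a peak at -728 bp (−log10 p 2.38) and replicate 1 had none. That peak (chr7:67951900-67952307) spans the start that RefSeq gives for Igf1r, at position 67952257.

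BMAL1 had 4 peaks at Igf1r in replicate 1 and 30 in replicate 2, or 1.38 and 10.3 per 100 kb. Over the autosomes the same lists had 1.41 and 7.20 per 100 kb. The closest BMAL1 peaks of the replicates missed each other by 84 bp. REV-ERBα had 3 peaks in replicate 1, with −log10 p of 2.38, 3.17 and 2.50, and none in replicate 2. Gene length matters for such counts: among the 2842 genes with windows over 100 kb, 22.1% had a BMAL1, 7.46% a REV-ERBα and 56.1% an RNAP2 region, against 3.02%, 3.65% and 34.9% of the 13789 genes with windows under 40 kb.

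Igfbp5, the IGF binding protein (ENSMUSG00000026185, chr1:72857932-72874884, minus strand), was the single gene with a region of a clock factor. The REV-ERBα peaks had −log10 p of 3.02 and 2.64 and fold enrichments of 2.46 and 2.32 in replicates 1 and 2, both with −log10 q of 0. The values were above the medians of their lists (2.50 and 2.59), at the 85.6 and 70.4 percentiles. The region (chr1:72868699-72869524) lay in an intron, with summits 5773 and 5679 bp after the first TSS and 94 bp apart. By its smaller −log10 p it ranked 556 of 1263 REV-ERBα regions. The peaks, 477 and 533 bp wide, shared 184 bp, so the region was lost when an overlap of 50% of the shorter peak was asked for. It was also lost at −log10 p of at least 3 in both lists.

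RNAP2 marked the start of Igfbp5 in both replicates (chr1:72874541-72875001), with −log10 p of 13.7 and 3.89 and fold enrichments of 7.46 and 3.17. Replicate 1 was the higher, and the −log10 q of 9.80 and 0.592 lay on either side of 1.3. The summits fell 78 and 49 bp after the first TSS. No RNAP2 peak overlapped the intronic REV-ERBα region. BMAL1 had no peak in replicate 1 and 1 in replicate 2, at the 3′ end of the gene, with the most common value of that list (1.87).

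**Figure D4:**
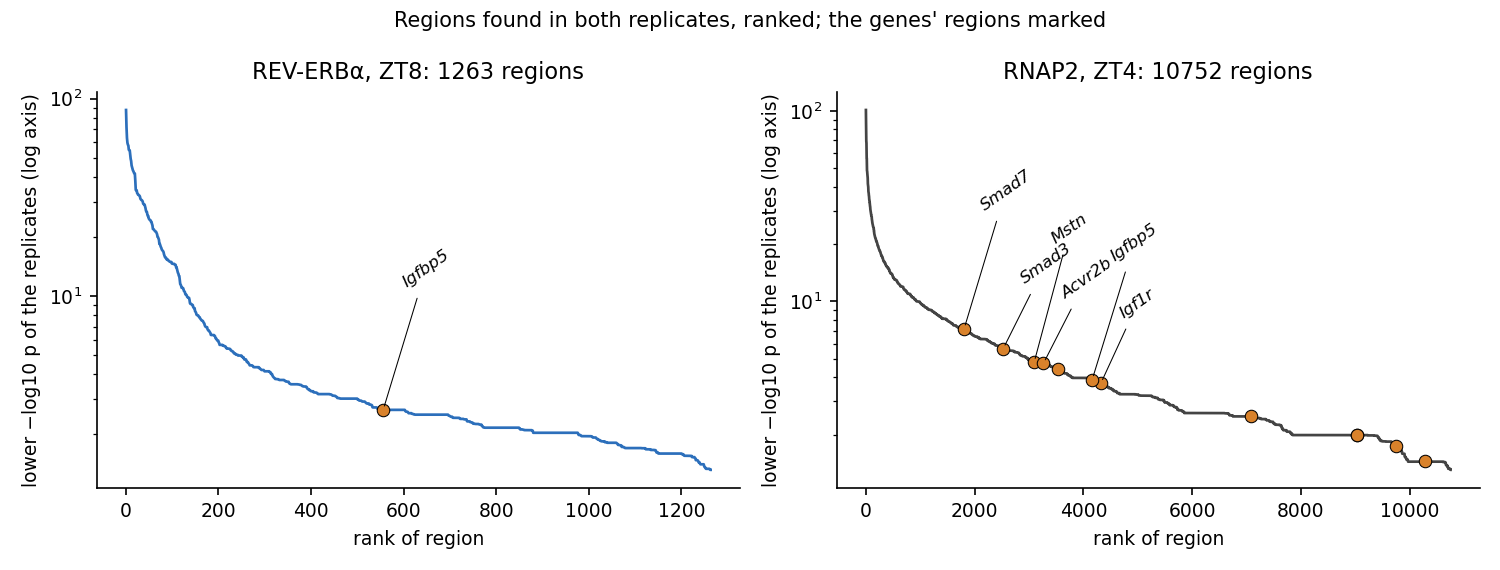
All regions found in both replicates, ranked by strength, the smaller of their replicate values of −log10 p (vertical log axis), for REV-ERBα (1263 regions) and RNAP2 (10752 regions), with the 1 and 12 regions of the 8 genes as orange points and the best region of each gene named. Igfbp5 stands at rank 556 for REV-ERBα, and the best RNAP2 regions run from rank 1806 (Smad7) to rank 4321 (Igf1r).

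Across the genes, RNAP2 order by the smaller replicate value of −log10 p was Smad7 (7.18), Smad3 (5.65), Mstn (4.79), Acvr2b (4.73), Igfbp5 (3.89) and Igf1r (3.72). The smaller value came from replicate 1 for Smad3 and Mstn and from replicate 2 for the others. The order thus mixes lists whose medians differ (3.21 and 1.99). The replicates did not keep this order, since replicate 1 placed Smad7 (16.8) and Igfbp5 (13.7) highest and Mstn lowest. Replicate 2 placed Smad3 (12.0) highest. Every step in the order was smaller than the difference between the replicates of one or both of the genes it separates. That difference includes the difference in scale between the lists. The 12 RNAP2 regions spread from rank 1806 to rank 10274.

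Per length, the windows of the 8 genes (661 kb in all) held 1.06 and 9.38 BMAL1 peaks per 100 kb, against 1.41 and 7.20 over the autosomes. REV-ERBα had 0.756 and 1.51 peaks per 100 kb, against 1.17 and 1.21. RNAP2 had 5.45 and 8.17, against 3.55 and 6.83. RNAP2 was thus denser than over the autosomes in both lists, while for BMAL1 and REV-ERBα one replicate was below and the other above. The autosomes include the sequence between genes, and density over the windows of all genes was not computed. By place, 43 of the 62 BMAL1 peaks of replicate 2 had their summit in an intron more than 1 kb from a TSS, and 3 had it within 1 kb of one. For REV-ERBα, 0 of 5 peaks in replicate 1 and 4 of 10 in replicate 2 had a summit within 1 kb of a TSS, and for RNAP2 13 of 36 and 9 of 54 did.

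**Figure D5:**
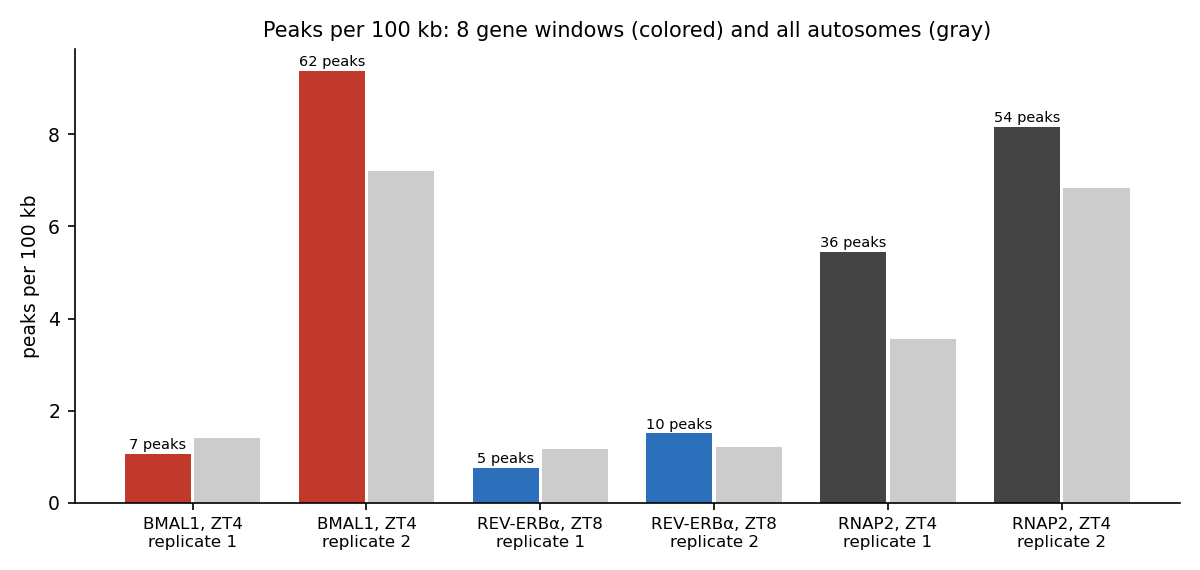
Peaks per 100 kb (vertical axis) in the 8 gene windows (colored bars) and over the autosomes (gray bars) for each of the 6 lists, with the number of peaks in the windows above each colored bar. RNAP2 bars exceed the gray bars in both replicates (5.45 against 3.55 and 8.17 against 6.83), and BMAL1 and REV-ERBα bars lie below in replicate 1 and above in replicate 2.

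The other genes of both pathways were read the same way. Of 53 genes, 3 had a BMAL1 region (6.81% of all genes), 3 a REV-ERBα region (4.42% of all genes) and 32 an RNAP2 region (41.1% of all genes). For 27 genes an RNAP2 region lay within 1 kb of a TSS (30.5% of all genes). The lists hold few genes each, so a count of 0 for a clock factor is near the share over all genes. The BMAL1 regions were in introns of Acvr2a, a second type II receptor (2.98 and 2.92), of Smad2, the partner of SMAD3 (2.30 and 2.92), and of Ski, a SMAD corepressor (2.48 and 4.25). REV-ERBα regions were at the promoter of Akt2, a kinase of the insulin and IGF cascade (3.57 and 3.18), and in introns of Acvr1b (2.09 and 4.35) and Tgfbr2 (2.02 and 2.41), receptors of the activin and TGF-β branches. By list, the 9 IGF binding proteins and their proteases and the 3 IGF ligands and receptors had 0 BMAL1 and 0 REV-ERBα regions, and so had the 6 ligands and the 9 antagonists and processing factors of the myostatin branch. Sites supported by 3 or more of the 4 clock factor lists were found at 1 of the 53 genes, Tgfbr1, against 1.59% of all genes. Tgfbr1 had 0 BMAL1 and 0 REV-ERBα regions, so the replicates of neither factor overlapped each other there.

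RNAP2 regions were found at 10 of 13 IGF signaling genes, 6 of 8 SMADs and their regulators and 4 of 5 activin and TGF-β receptors. They were also found at 3 of 6 ligands, 3 of 9 antagonists and processing factors, 2 of 3 IGF ligands and receptors and 4 of 9 IGF binding proteins and proteases. The 5 strongest by rank were Irs2, an insulin receptor substrate (19.8 and 29.1), Tgfbr1 (38.3 and 16.2), Smurf2, a ubiquitin ligase for SMADs (29.0 and 13.9), Pik3r1, a PI3K regulatory subunit (14.7 and 13.4) and Tgfbr2 (10.2 and 8.89). Each of these stood above the 8 genes by rank, the highest of which was Smad7 at rank 1806. For scale, the BMAL1 regions of the clock genes had −log10 p of 36.5 and 21.2 at Per1, 20.4 and 31.6 at Nr1d1, and 14.1 and 9.72 at Dbp, while the highest BMAL1 values at the 8 genes were 3.0 in replicate 1 and 3.88 in replicate 2.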

How the data were processed

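Peaks of BMAL1, REV-ERBα and RNAP2 ChIP-seq in mouse gastrocnemius were used as deposited, 2 replicate lists per factor, and the input sample was not analysed here. The authors aligned reads to mm10, dropped duplicates and multi-mapping reads, down-sampled the reads and called peaks per sample against input at a p cutoff of 0.05. The submitters' processing notes name BWA 7.12 and MACS2 2.1.1. The deposited fold enrichment (a ratio to the local background at the summit), −log10 p and −log10 q were used, and the deposited score was not. The study gives read totals per library, which were not used here. The lists give no reads per peak, so depth is unknown for any one peak and precision rests on the replicates.

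Lists were joined in Python 3.11.15 with numpy 2.4.6. Regions, windows and letters were counted as described, within 100 bp of the summit for letters at regions, with pysam 0.24.0 for sequence and matplotlib 3.10.9 for plots, after tests on simulated data. No test was made. All 8 genes are named, and of the pathway genes those with a BMAL1 or REV-ERBα region or among the 5 strongest for RNAP2, with 1 listed gene not reported here. Members and lists were chosen with earlier results of these data known.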

Additional observations from a re-analysis of the deposited data

How the results depend on the processing

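No paired analysis was possible because no comparison between groups was tested. The BMAL1 count of 0 could rise under few settings. It was 0 with a window of 20 kb around each TSS, 4 to 8 in single lists and 1 (Igf1r) when peaks less than 500 bp apart were joined, a setting added after the values were seen. The REV-ERBα count of 1 (Igfbp5) fell to 0 at −log10 p of at least 3 in both lists, at −log10 q of at least 1.3, with an overlap of 50% of the shorter peak and within 1 kb of a TSS. It was 2 when peaks less than 500 bp apart were joined (Acvr2b added), and single lists gave 3 to 6. The RNAP2 count of 6 was 3 at −log10 q of at least 1.3 (Mstn, Smad3 and Smad7) and 8 in both single lists. For BMAL1, stricter settings could only return 0 and say nothing of stability. The same holds for the settings for sites in 3 of 4 clock lists. Kinds of letters found, summed over the regions at member TSSs and the REV-ERBα region, were 10 within 100 bp of the summit, 4 within 50 bp and 17 within 200 bp. The causes of these changes were not tested.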
